A study of Mus musculus with 18 samples.

Results

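Neurosphere cultures that had been exposed to trichostatin A (TSA) for 6 h were compared directly with cultures exposed to BMP2 for 6 h, and the controls did not enter the contrast. The comparison used 4 of the 18 arrays of the series, which were TSA 6 h replicates 1 and 2 and BMP2 6 h replicates 1 and 2. Its members were all probe sets with a mean signal of at least 100 in at least 1 of the 6 groups of the series. These were 19498 of 45101 probe sets, and they covered 10589 genes. The cells came from the lateral and medial ganglionic eminences of E15.5 mouse embryos, had grown as neurospheres with EGF and bFGF, and were then dissociated and plated in low serum without EGF. Such cultures are mixtures of precursors, neurons and glia, so that each array averages over these cells. TSA was given at 50 nM and recombinant BMP2 at 10 ng/ml, and the 2 arrays of 6 h controls, which are shown beside them, came from cultures that received neither agent. The labels and the methods give different starting times for both treatments, so that the exact age of the plated cells is not known here. Each value is the quantile-normalized signal of 1 probe set, and a gene with several probe sets is described by its brightest one.

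TSA blocks the zinc-dependent histone deacetylases (HDACs), the enzymes that remove acetyl groups from histones and from many other proteins. It acts on existing chromatin and can raise or lower transcription of a gene. BMP2 is a secreted ligand that binds type I and type II receptor kinases, which phosphorylate Smad1 and Smad5. These enter the nucleus with Smad4 and switch on target genes, among them the Id genes and a set of feedback inhibitors such as noggin and the inhibitory Smads. In embryonic forebrain precursors of late gestation, BMP signals are known to favour astrocytes over neurons and oligodendrocytes, and HDAC inhibition also shifts the choice of fate. The question of the comparison is which transcripts differ between an HDAC inhibitor and a BMP ligand shortly after their addition.

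Many transcripts differed between the 2 treatments. Several feedback inhibitors of BMP signaling, noggin first, were among the largest differences on the side lower with TSA, and an ephrin and the inducible heat shock genes were among the largest on the higher side. At a Benjamini-Hochberg adjusted p under 0.05 in limma, 4716 of 19498 probe sets (24.2%) differed, 2496 of them higher and 2220 lower with TSA than with BMP2. At the level of genes, 1640 of 10589 (15.49%) were higher and 1322 (12.5%) were lower with TSA, and the median log2 difference of all genes, TSA minus BMP2, was 0.03. The counts of the gene lists below are to be read beside the shares of 15.49% and 12.5%, and lists near these shares are not read as results. A difference of more than 1 on the log2 scale was reached by 541 of the higher and 556 of the lower genes, and one of more than 2 by 51 and 63. By criteria like those of the study's methods (group means more than 2-fold and more than 100 signal units apart, with an unadjusted p under 0.1), 2071 probe sets (10.6%) differed, 958 higher and 1113 lower with TSA. The number of calls depends on how the error is estimated. It was 9303 when the 6 arrays of 6 h alone gave the error, and it fell to 2725 and 2307 without TSA replicate 1 or 2 and to 2483 and 2559 without BMP2 replicate 1 or 2. With 2 arrays in a group the precision is limited by the number of arrays. In the main fit the error was pooled over all 6 groups of the series, so that the spread within the 24 h groups enters it as well. Some of the 24 h controls stand apart from the others, as described further on. The standard errors and p-values of this fit therefore do not measure the spread of the compared arrays alone. The labels do not state whether the 2 arrays of a group stem from separate cultures. The p-values thus reflect no more than the spread within the groups of the series, which may be technical.

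**Figure D1:**
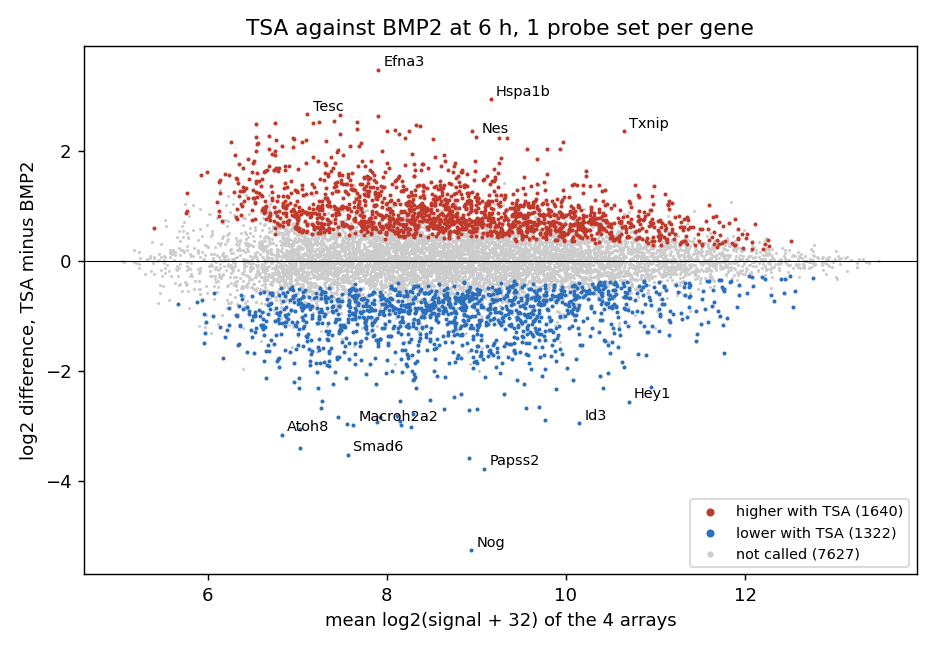
The log2 difference of each gene (vertical axis, TSA minus BMP2) is plotted against its mean log2 signal over the 4 arrays after adding 32 (horizontal axis); each point is 1 gene. The 1640 genes called higher with TSA lie above 0 and the 1322 called lower lie below it, and Nog is the lowest point of all at -5.25.

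The 4 arrays were alike in brightness, with deposited medians of 39.2 to 40.7 over the 6 arrays of 6 h, and the log2 values of the 2 arrays of a treatment correlated across probe sets at 0.988 for TSA and 0.985 for BMP2. When TSA 1 was set against BMP2 1 and TSA 2 against BMP2 2, 89.1% of all genes differed in the same direction both times. Of the 582 genes more than 2-fold higher with TSA in the first of these differences, 459 (78.9%) were so in the second, and of the 604 genes more than 2-fold lower, 519 (85.9%) were. Both TSA arrays lay beyond both BMP2 arrays for all 2962 called genes, but also for 76.7% of all genes tested, so that a lack of overlap says little by itself with 2 arrays against 2. Where 1 group was dim, the added 32 makes the log2 difference smaller than the ratio of the signals. At the edge of the filter, the lowest probe set included had a highest group mean of 100.03 and the highest one left out 99.997.

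**Figure D2:**
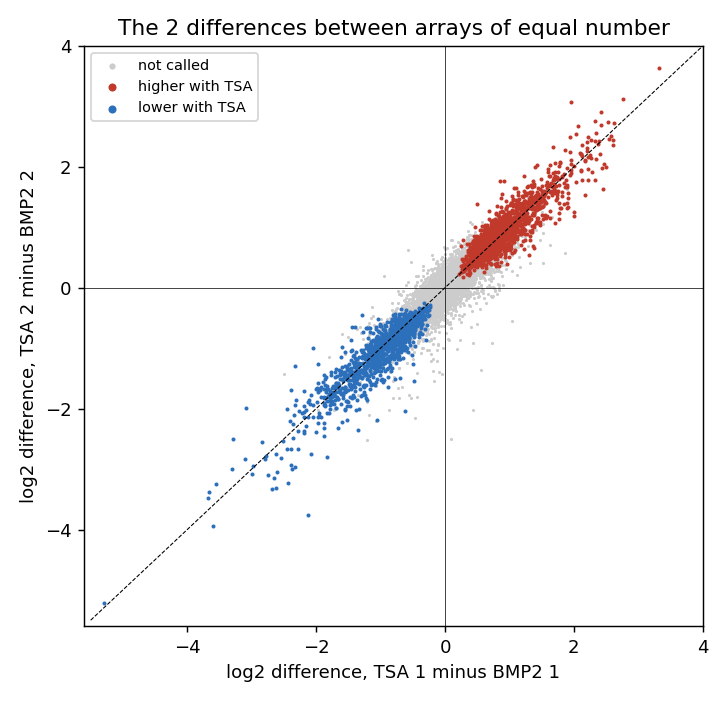
Each point is 1 gene, with the log2 difference TSA 1 minus BMP2 1 on the horizontal axis and TSA 2 minus BMP2 2 on the vertical axis, and the dashed line marks equal values. Called genes lie along this line in the upper right and lower left quadrants, and grey points are genes not called.

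The position of the control signal showed which treatment lay farther from untreated cells. Among the 1640 genes higher with TSA, the TSA mean was farther from the control mean than the BMP2 mean in 1520 (92.7%). Among the 1322 genes lower with TSA, it was farther in 1121 (84.8%), and BMP2 was farther in 201 (15.2%). The balance was different among the largest differences on the lower side. Of the 29 genes lower by more than 2.5 on the log2 scale, TSA was farther from the controls in 13 and BMP2 in 16. Of the 10 genes higher by more than 2.5, TSA was farther in 9. For reference, 2783 of the 10589 genes (26.3%) differed between TSA and the controls at 6 h and 189 (1.78%) between BMP2 and the controls. These comparisons share the 2 control arrays, so that their values are given side by side for single genes and are not correlated here.

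**Figure D3:**
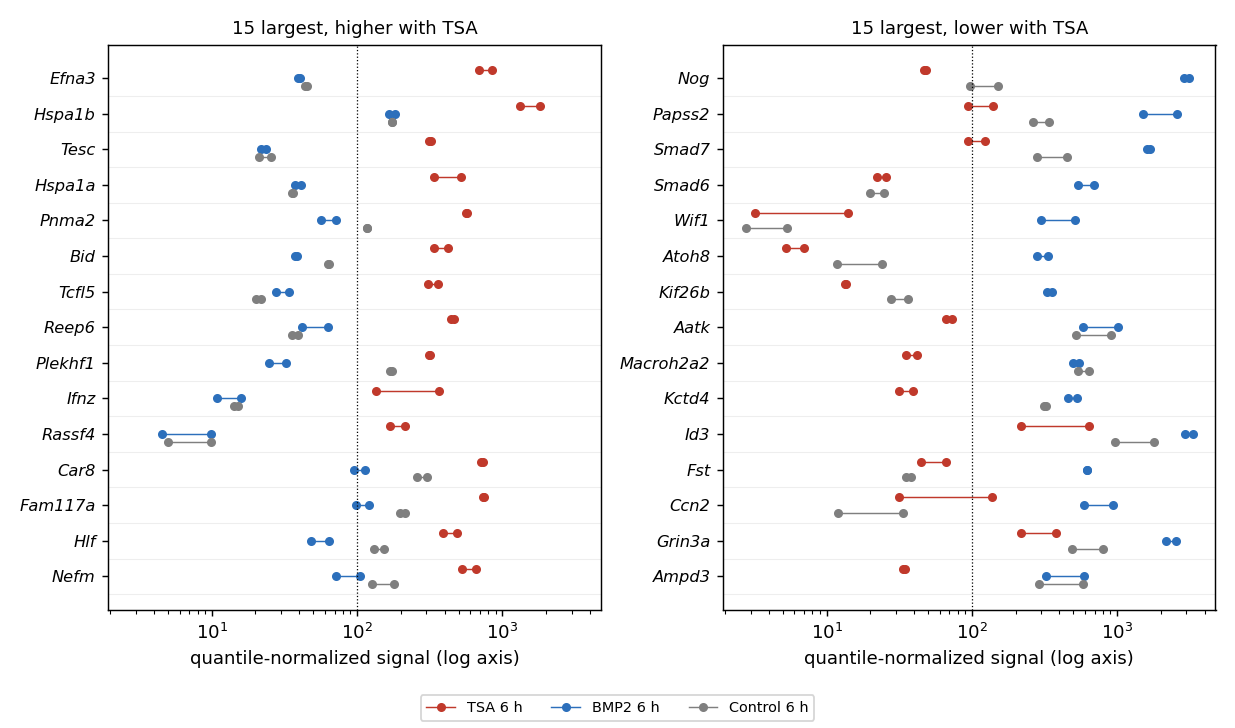
Quantile-normalized signals (log axis) of the 15 genes with the largest called differences in each direction, higher with TSA on the left and lower with TSA on the right; both points of a line are the 2 arrays of a group, TSA in red, BMP2 in blue and control in grey, and the dotted line marks a signal of 100. Controls lie with BMP2 for Efna3, Hspa1b and Macroh2a2, with TSA for Smad6, Wif1 and Fst, and between both for Nog.

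Feedback inhibitors of BMP signaling were among the largest differences. Of 13 measured BMP antagonists and inhibitors, 8 were lower with TSA than with BMP2 and 0 were higher, with a median log2 difference of -0.70. Nog, which encodes the secreted BMP trap noggin, had signals of 48.7 and 46.9 on the 2 TSA arrays, against 3142 and 2888 on the BMP2 arrays and 150.3 and 97.0 on the control arrays. Both TSA arrays were below both controls and both BMP2 arrays were far above them, and the log2 difference of -5.25 (standard error 0.18, adjusted p = 9.42e-11 in limma) was the largest of all genes. Smad6, an inhibitory Smad that blocks the type I receptors and Smad1, gave 25.8 and 22.2 with TSA, against 696 and 534 with BMP2. The TSA arrays overlapped with the controls, at 24.8 and 19.8, and the difference from BMP2 was -3.52 (standard error 0.31, adjusted p = 3.25e-06). Smad7, the other inhibitory Smad, had 94.5 and 123 in TSA cultures, against 1593 and 1689.6 in BMP2 cultures and 279.8 and 452 in controls, which is a log2 difference of -3.58 (standard error 0.56, adjusted p = 0.000342). Between BMP2 and the controls Smad7 differed by 2.11, which was not called (adjusted p = 0.0937). Papss2, described further on, ranked between Nog and both inhibitory Smads. Fst, the activin and BMP antagonist follistatin, was at 66.0 and 44.6 with TSA, against 624 and 622 with BMP2 and 35.1 and 38.4 in controls (log2 difference -2.92, standard error 0.36, adjusted p = 5.34e-05). Smaller differences were seen for the Smad corepressors Skil (-0.996) and Ski (-0.47), for the BMP-binding protein Bmper (-0.86) and for the Smad ubiquitin ligase Smurf1 (-0.70). Twsg1, Bambi, Nbl1, Smurf2 and Chrdl1 were not called, and 4 further members did not reach the filter. Without any 1 of the 4 arrays, 5 to 7 members were still called lower, and the calls lost were those of Smurf1 (all 4 arrays, adjusted p = 0.0628 to 0.16), Bmper (TSA replicate 1 and either BMP2 replicate, up to 0.231) and Ski (TSA replicate 1 and BMP2 replicate 2, up to 0.0944).

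Most of the measured receptors were also lower with TSA. Among 12 measured ligands, receptors and Smads of the pathway, 7 were lower with TSA and 1 was higher (median log2 difference -0.64). Bmpr1a, a type I receptor, had 1452 and 1338 with TSA, against 3545 and 3598 with BMP2, and the controls lay between them at 2495 and 2237. Each treatment differed from the controls here, TSA by -0.75 (adjusted p = 0.00115) and BMP2 by 0.59 (adjusted p = 0.0393), and from each other by -1.34 (standard error 0.13, adjusted p = 7.8e-06 in limma). Bmpr1b, the second type I receptor, showed 255 and 226 in TSA cultures, against 987 and 869 in BMP2 cultures and 928 and 704 in controls. BMP2 and control arrays overlapped while TSA arrays were far below, with a log2 difference of -1.81 (standard error 0.29, adjusted p = 0.00035). The type II receptor Bmpr2 was at 1275 and 1130.5 with TSA, against 3192 and 2766 with BMP2 and 2033 and 1629 in controls (log2 difference -1.28, adjusted p = 0.00076). The receptor-activated Smads Smad1 (-0.97) and Smad5 (-0.61) and the receptors Acvr1 (-0.67) and Acvr2b (-0.70) were lower as well, whereas the shared partner Smad4 (-0.14, adjusted p = 0.652) and the type II receptor Acvr2a (-0.02, adjusted p = 0.974) were not called. The exception was the ligand gene Bmp6, with 76.6 and 119 in TSA cultures, against 15.6 and 27.1 in BMP2 cultures and 6.86 and 17.3 in controls. Its difference of 1.27 (adjusted p = 0.0348) lost its call without any 1 of the 4 arrays (adjusted p = 0.0648 to 0.226). Leaving out 1 array in turn left 4 to 5 lower and 0 higher calls in the list. Among the lower genes, Acvr2b lost its call without any 1 array (adjusted p = 0.0775 to 0.126), Acvr1 without any 1 array except BMP2 replicate 2 (up to 0.185) and Smad5 without any 1 array except TSA replicate 1 (up to 0.177). Bmp2 itself did not reach the filter.

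The transcription factors that BMP signals are known to induce formed the list with the lowest median of those with 7 or more measured members, at -1.29. Of its 13 measured members 8 were lower with TSA and 0 were higher, and the count without any 1 array was 7 to 8. Id1, which like the other Id proteins binds basic helix-loop-helix factors and blocks their action, had 819.7 and 407 on the TSA arrays, against 2989 and 3026 on the BMP2 arrays and 1213 and 826 on the controls. The higher TSA value lay just below the lower control value, and BMP2 was far above both (log2 difference -2.31, standard error 0.45, adjusted p = 0.00158 in limma). Id3 had 644 and 217 with TSA, against 2926 and 3334 with BMP2 and 1792 and 960.3 in controls, and its TSA arrays lay far apart from each other but both below the controls (log2 difference -2.94, standard error 0.50, adjusted p = 0.00059). Id2 (-1.68, adjusted p = 0.00062) and Id4 (-1.29, adjusted p = 0.00156) differed in the same direction. Against the controls, BMP2 was higher by 1.56 for Id1, 0.85 for Id2 and 1.23 for Id3, but none of these was called (adjusted p = 0.138, 0.29 and 0.541). Of the 13 members of the list, 3 were called higher with BMP2 than in controls. Hey1, a repressor of the Hairy family that answers to BMP and Notch, gave 718 and 597 with TSA, against 4065 and 3945 with BMP2 and 1205 and 796 in controls. The 2 BMP2 arrays stood apart from the other 4 (log2 difference -2.56, standard error 0.26, adjusted p = 7.34e-06). Atoh8, a basic helix-loop-helix factor, was near the bottom of the scale with TSA at 5.23 and 6.96, against 336 and 279 with BMP2 and 11.8 and 23.9 in controls (log2 difference -3.15, adjusted p = 1.29e-06). Zeb2, a Smad-binding repressor, differed in another way, with 363 and 248 in TSA cultures, against 1419 and 1500.2 in BMP2 cultures and 1756 and 1758 in controls. Against the controls, the log2 difference was -2.43 with TSA (adjusted p = 3.11e-05) and -0.26 with BMP2, which was not called. The eighth lower member, Msx2, lost its call without TSA replicate 1 or BMP2 replicate 1 (adjusted p = 0.0583 and 0.098).

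Promoter windows of 4 genes at the ends of the comparison are shown, 2 that were lower with TSA (Smad6 and Id3) and 2 that were higher (Hspa1b and Tesc, described further on). Each window runs from 250 bases before to 50 bases after the annotated start, 5′ to 3′ on the strand of the gene, and comes from RefSeq on GRCm38.p6. Capitals mark GGGCGG (the GC box, bound by the Sp1 family), GGCGCC (a motif known from BMP-responsive Smad sites) and GAANNTTC (the inverted repeat of heat shock elements), on either strand. The windows are Smad6 at chr9:64022010-64022309 (minus strand), Id3 at chr4:136143572-136143871 (plus strand), Hspa1b at chr17:34959189-34959488 (minus strand) and Tesc at chr5:118027493-118027792 (plus strand).
Smad6: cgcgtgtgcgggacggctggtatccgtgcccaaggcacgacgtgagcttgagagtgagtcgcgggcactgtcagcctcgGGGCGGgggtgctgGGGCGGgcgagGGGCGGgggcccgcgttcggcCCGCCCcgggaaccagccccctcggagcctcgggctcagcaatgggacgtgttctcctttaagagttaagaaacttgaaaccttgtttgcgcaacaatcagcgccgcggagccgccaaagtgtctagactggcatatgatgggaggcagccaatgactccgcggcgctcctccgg
Id3: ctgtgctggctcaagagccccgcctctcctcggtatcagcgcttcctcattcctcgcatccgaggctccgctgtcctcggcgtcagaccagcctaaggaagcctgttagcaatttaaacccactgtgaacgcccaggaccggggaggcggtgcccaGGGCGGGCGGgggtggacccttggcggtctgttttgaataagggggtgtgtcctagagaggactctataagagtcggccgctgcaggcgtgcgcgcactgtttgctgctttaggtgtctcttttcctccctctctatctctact
Hspa1b: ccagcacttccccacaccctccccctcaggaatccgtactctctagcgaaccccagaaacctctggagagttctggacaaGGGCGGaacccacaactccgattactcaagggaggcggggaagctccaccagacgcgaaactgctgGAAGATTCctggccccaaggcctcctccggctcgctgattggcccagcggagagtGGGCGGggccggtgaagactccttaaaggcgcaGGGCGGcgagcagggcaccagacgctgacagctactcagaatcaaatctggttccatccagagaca
Tesc: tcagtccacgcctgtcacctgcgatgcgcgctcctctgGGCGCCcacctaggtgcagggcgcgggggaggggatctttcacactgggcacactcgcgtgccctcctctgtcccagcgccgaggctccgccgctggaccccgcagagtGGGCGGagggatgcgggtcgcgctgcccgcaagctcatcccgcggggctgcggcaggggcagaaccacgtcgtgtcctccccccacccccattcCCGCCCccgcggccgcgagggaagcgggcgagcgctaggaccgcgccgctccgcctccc
The Smad6 window holds 4 GC boxes, 1 of them read on the opposite strand, and the Id3 window 2 that overlap each other. Hspa1b has 3 GC boxes and 1 GAANNTTC, and Tesc 2 GC boxes and 1 GGCGCC. Over all 27025 promoter windows of the table, 35.9% hold GGGCGG, 12% GGCGCC and 7.95% GAANNTTC, and in 223 (0.825%) a GGCGCC overlaps a GGGCGG. A window was found for 8654 of the 10589 tested genes. GGGCGG was in the windows of 76% of the 1348 higher and 63.3% of the 1087 lower genes, against 67.8% of all tested genes. GGCGCC was in 20% of higher and 26.4% of lower genes, against 23.1% of all tested, and GAANNTTC in 5.64% of higher and 4.23% of lower genes, against 5.37% of all tested. These shares describe letters in a window and say nothing about binding.

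**Figure D4:**
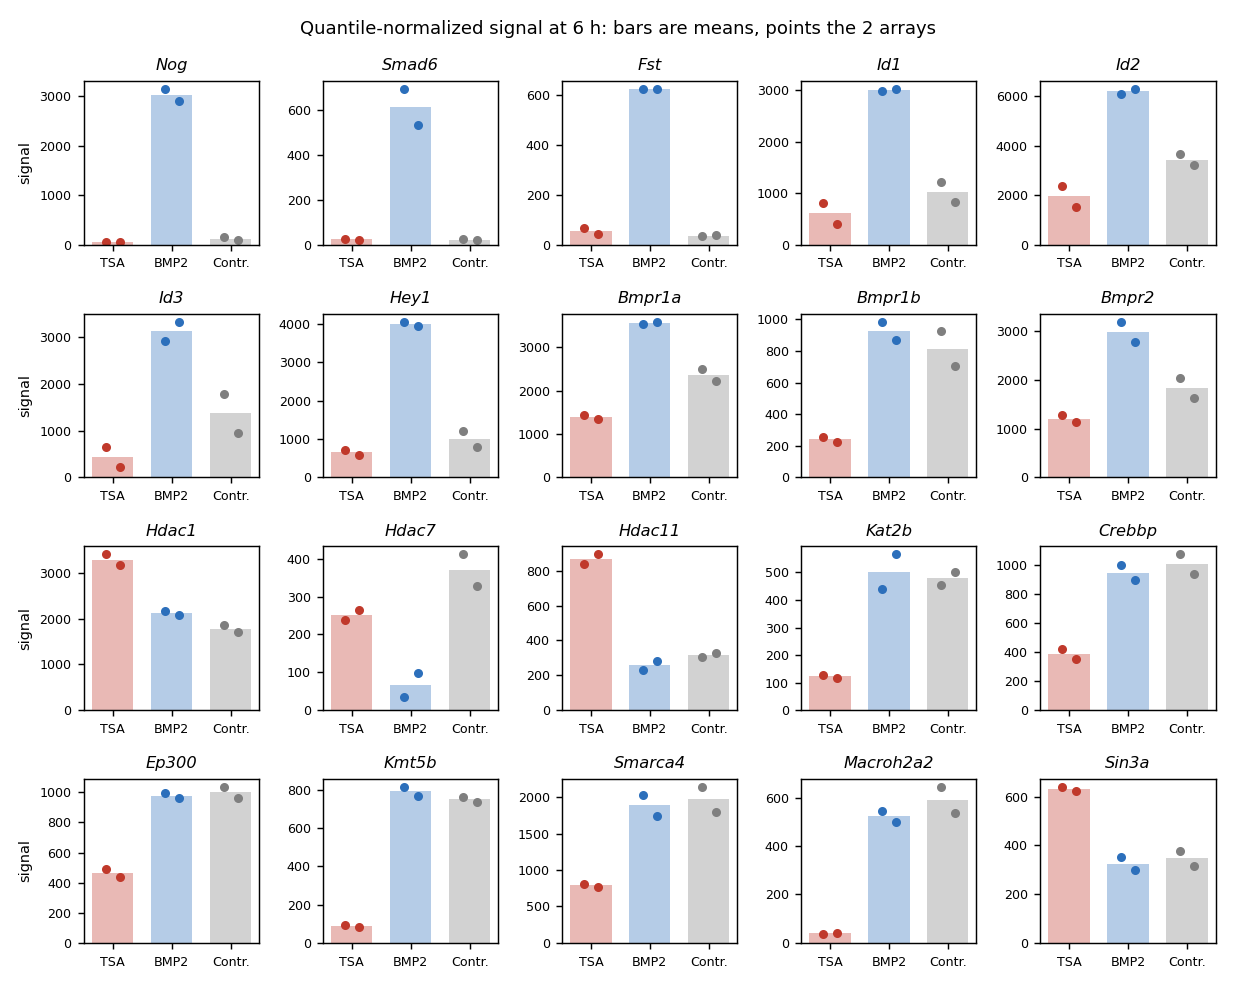
Signals of 20 genes at 6 h on linear axes that start at 0, in the order TSA, BMP2 and control (Contr.); bars are means of 2 arrays and points the single arrays. In the BMP feedback genes and Id genes the BMP2 bar stands above the other 2, and in most of the chromatin genes the TSA bar differs from 2 similar bars of BMP2 and control.

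Of the 11 zinc-dependent histone deacetylases, all measured, 5 were higher and 2 were lower with TSA and 4 were not called (median log2 difference 0.56). Against the controls their median was 0.02 with TSA, with 3 called higher and 1 lower. With BMP2 it was -0.04, with 0 called higher and 1 lower. Of 13 histone acetyltransferases, which add acetyl groups, 1 was higher, 7 were lower and 5 were not called (median -0.46). Hdac11, the only class IV enzyme, had 840.0 and 895 with TSA, against 231 and 282 with BMP2 and 306 and 327 in controls, with TSA apart from the other 4 arrays (log2 difference 1.64, standard error 0.15, adjusted p = 5.29e-06 in limma). Hdac1, a class I enzyme of several corepressor complexes, was at 3409 and 3164 in TSA cultures, against 2177 and 2076 in BMP2 cultures and 1853 and 1709 in controls (log2 difference 0.62, adjusted p = 0.00497). Hdac6, a tubulin deacetylase, differed by 0.93 (adjusted p = 0.00494) and Hdac5 by 0.76 (adjusted p = 0.027, or up to 0.208 without TSA replicate 1 or 2 or BMP2 replicate 1). Hdac7 was farther from the controls with BMP2 than with TSA, with 237 and 264 on the TSA arrays, against 35.3 and 97.6 on the BMP2 arrays and 412 and 327 on the controls. Its log2 difference of 1.59 (adjusted p = 0.00313) became 1.12 without BMP2 replicate 1 (adjusted p = 0.0637). Hdac9 (-1.05) and Hdac2 (-0.47) were lower with TSA, and each lost its call without TSA replicate 2 or BMP2 replicate 1, Hdac9 also without TSA replicate 1 (adjusted p = 0.0742 to 0.13 for Hdac9 and 0.129 to 0.139 for Hdac2).

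Among the acetyltransferases, Kat2b (PCAF) had 129 and 117 with TSA, against 438 and 566 with BMP2 and 456 and 503 in controls, so that TSA alone was low (log2 difference -1.78, standard error 0.32, adjusted p = 0.00103 in limma). The general coactivators Crebbp (CBP) and Ep300 (p300) showed the same order of groups. Crebbp gave 420.3 and 352 in TSA cultures, against 1002 and 899 in BMP2 cultures and 1078 and 938 in controls (log2 difference -1.24, adjusted p = 0.00387). Ep300 gave 488 and 438 in TSA cultures, against 993 and 964 in BMP2 cultures and 1036 and 965 in controls (log2 difference -1.03, adjusted p = 0.00265). Kat6b (-1.16, adjusted p = 0.000269), Ncoa2 (-1.01), Kat5 (-0.91) and Ncoa1 (-0.46) were lower too. Against them stood Hat1, which acetylates newly made histone H4, with 1499 and 1362 with TSA, against 730.2 and 559 with BMP2 and 864 and 635 in controls (log2 difference 1.12, adjusted p = 0.00521, or 0.0664 without BMP2 replicate 2). Without any 1 array, 5 to 7 acetyltransferases stayed called lower. Ncoa1 lost its call without any 1 array except TSA replicate 2 (adjusted p up to 0.0755) and Ncoa2 without TSA replicate 1 or BMP2 replicate 2 (0.0548 and 0.0557).

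Other chromatin genes were more often lower than higher with TSA. Of 38 histone methyltransferases and demethylases, 10 were lower and 3 higher (median -0.31), and of 35 chromatin remodelers and corepressors, 11 were lower and 2 higher (median -0.19). Kmt5b, which places the second and the third methyl group on lysine 20 of histone H4, had 90.9 and 85.0 in TSA cultures, against 815 and 769.6 in BMP2 cultures and 761 and 739 in controls. TSA was far below 4 arrays that lay close together (log2 difference -2.78, standard error 0.20, adjusted p = 1.29e-06 in limma). Its paralog Kmt5c was higher with TSA (0.50, adjusted p = 0.0243), a call lost without TSA replicate 1 or either BMP2 replicate (adjusted p = 0.0782 to 0.248). Setd1b, a methyltransferase for lysine 4 of histone H3, differed by -1.69 (adjusted p = 0.000753), and Setd7 by -1.19 (adjusted p = 0.000515). The demethylases Kdm4a (-0.88) and Kdm4b (0.64) were called in opposite directions. The call of Kdm4b was lost without any 1 of the 4 arrays (adjusted p = 0.0524 to 0.0597) and that of Kdm4a without any 1 array except TSA replicate 1 (up to 0.0862). Nsd3 was higher by its brightest probe set (0.79), while its probe sets ranged down to -0.39, and this call also needed all 4 arrays (adjusted p = 0.0839 to 0.0984 without 1 of them).

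Subunits of the BAF and PBAF remodeling complexes made up 6 of the 11 lower remodeler genes, a grouping chosen after their values were seen. The share of lower genes among all measured subunits was not set beside the 12.5% of all genes, and nothing is read from this count. Smarca4 (BRG1), an ATPase of the complex, had 812 and 767 with TSA, against 2034 and 1745 with BMP2 and 2141 and 1802 in controls (log2 difference -1.22, standard error 0.19, adjusted p = 0.000272 in limma). Arid1a (-1.32), Arid1b (-1.10), Arid2 (-1.33), Smarcb1 (-1.09) and Smarcc2 (-0.94) were lower with TSA as well, whereas Smarca2 (0.21, adjusted p = 0.349) and Smarcc1 (0.001, adjusted p = 0.999) were not called. The calls of Arid1b and Smarcc2 were lost without any 1 array (adjusted p = 0.052 to 0.0699 and 0.0799 to 0.184). Tle3, a Groucho corepressor, was at 456 and 438 with TSA, against 1347 and 1718 with BMP2 and 609 and 691 in controls, and here BMP2 was the group farther from the controls (log2 difference -1.70, adjusted p = 0.000165). Sin3a, the scaffold of an HDAC1 and HDAC2 complex, was higher with TSA at 639.8 and 621, against 351 and 299 with BMP2 and 377 and 317 in controls (log2 difference 0.90, adjusted p = 0.000489). Rcor2, a partner of the demethylase LSD1, also was higher, but with BMP2 below the controls (295 and 275 with TSA, against 120.2 and 112 with BMP2 and 365 and 333 in controls). Of 10 measured linker and variant histone genes 1 was higher and 1 lower with TSA, with a median of 0.56. With the error from the 6 arrays of 6 h alone 7 were higher and 1 lower. That fit called 4904 of all 19498 probe sets higher and 4399 lower. H3f3b (0.94), which encodes histone H3.3, lost its call without TSA replicate 1 or either BMP2 replicate (adjusted p = 0.127 to 0.389). Macroh2a2, one of the macroH2A histone variants, gave 35.2 and 42.2 in TSA cultures, against 547 and 498 in BMP2 cultures and 645 and 535 in controls. Its log2 difference of -2.97 (standard error 0.23, adjusted p = 1.54e-06) contrasts with that of Macroh2a1, which was not called (-0.12, adjusted p = 0.798). Leaving out 1 array in turn left 5 to 9 lower calls among methyltransferases and demethylases and 7 to 8 among remodelers.

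Among the largest differences upward with TSA were those of an ephrin and of heat shock genes. Efna3, an ephrin that activates Eph receptors on neighbouring cells, had 696 and 849 on the TSA arrays, against 40.6 and 39.1 on the BMP2 arrays and 43.7 and 45.0 on the controls (log2 difference 3.48, standard error 0.31, adjusted p = 3.7e-06 in limma). Hspa1b, an inducible HSP70 chaperone, had 1321 and 1829 with TSA, against 167 and 182 with BMP2 and 173 and 175 in controls, and both TSA arrays stood above 4 similar arrays (log2 difference 2.94, standard error 0.22, adjusted p = 1.29e-06). Hspa1a gave 337 and 516 with TSA, against 37.2 and 40.8 with BMP2 and 36.5 and 35.9 in controls (log2 difference 2.66, adjusted p = 2.62e-06), but the 2 genes are near-identical copies whose probe sets can bind each other's transcripts. The rest of the heat shock and unfolded protein list moved little. Of its 20 measured members 4 were higher, 1 was lower and the median was 0.09, close to the 0.03 of all genes. The constitutive chaperones Hspa8 (-0.04) and Hsp90aa1 (-0.11) and the endoplasmic reticulum chaperone Hspa5 (0.23) were not called. Ddit3 (CHOP), a factor of the unfolded protein response, was higher (0.81, adjusted p = 0.0437), a call lost without any 1 array (0.0628 to 0.289). Hspe1 (0.41) and Dnaja1 (-0.29) passed the test by small differences that needed all 4 arrays (adjusted p = 0.0677 to 0.211 and 0.105 to 0.206 without 1 of them).

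Several genes of redox control and of the damage response were higher with TSA, 7 of 25 measured members against 2 lower, with a median of 0.33. Txnip, which binds and inhibits thioredoxin, had 3151 and 4120.4 in TSA cultures, against 627 and 729 in BMP2 cultures and 434 and 809 in controls (log2 difference 2.36, standard error 0.38, adjusted p = 0.000382 in limma). The BH3-only genes of apoptosis Pmaip1 (Noxa) and Bbc3 (Puma) were both higher. Pmaip1 was at 286 and 364 with TSA, against 41.5 and 71.9 with BMP2 and 37.7 and 58.4 in controls (log2 difference 2.02, adjusted p = 0.000237), and Bbc3 differed by 1.27 (adjusted p = 0.00818, or 0.0667 and 0.095 without TSA replicate 2 or BMP2 replicate 1). Bid, a further BH3-only gene among the 15 largest differences, had 340.1 and 423 with TSA, against 37.4 and 38.7 with BMP2 and 63.1 and 64.6 in controls, with the controls closer to BMP2 (log2 difference 2.55, adjusted p = 1.76e-05). Ier3, an early stress-response gene, was nearly dark outside the TSA cultures, with 192 and 154 there, against 8.44 and 13.1 with BMP2 and 5.89 and 10.3 in controls. Sesn2 (1.21), Sod2 (0.60) and Gstt3 (1.24) were higher, Sod2 not so without TSA replicate 1 or BMP2 replicate 2 (adjusted p = 0.0703 and 0.0897) and Gstt3 with signals of 63.9 at most and a call that needed all 4 arrays (adjusted p = 0.0694 to 0.205). A second probe set of Sesn2 gave only 0.21. Gadd45b, a stress sensor, ran the other way, with 71.3 and 121 in TSA cultures, against 281 and 271 in BMP2 cultures and 26.7 and 49.9 in controls. TSA lay between the controls and BMP2 here (log2 difference -1.29, adjusted p = 0.0103), and the call was lost without TSA replicate 1 or either BMP2 replicate (adjusted p = 0.0542 to 0.113). Metallothioneins and heme oxygenase were not called, Mt1 at 0.39, Mt2 at 0.92 and Hmox1 at 0.98.

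The inhibitors of cyclin-dependent kinases differed in both directions, 2 of 7 higher and 1 lower with TSA. Cdkn1a (p21) had 1555 and 1997 with TSA, against 285 and 561 with BMP2 and 312 and 832 in controls. All TSA values exceeded all others, although each group spread widely (log2 difference 2.05, standard error 0.51, adjusted p = 0.00787 in limma, and 0.0704 and 0.101 without TSA replicate 2 or BMP2 replicate 1). Cdkn2b (p15) gave 463 and 611 with TSA, against 119 and 181 with BMP2 and 106 and 154 in controls (log2 difference 1.65, adjusted p = 0.00173). Cdkn1c (p57) was high in the BMP2 cultures instead, with 400.1 and 366 in TSA cultures, against 2115 and 1401 in BMP2 cultures and 205 and 179 in controls (log2 difference -2.08, adjusted p = 0.00159). Against the controls, Cdkn1c differed with BMP2 by 2.97 (adjusted p = 0.000858) and with TSA by 0.89 (adjusted p = 0.129). With the error from the 6 arrays of 6 h alone, 4904 of all 19498 probe sets were higher and 4399 lower. Of 34 cell cycle and replication genes, 7 were called in that fit (2 higher and 5 lower) and 4 in the main fit. Cdk2 (0.68) and the D cyclin Ccnd3 (0.84) were higher with TSA, Mycn (-1.22) and Cdk4 (-0.61) were lower, and each of these calls was lost when certain single arrays were left out. Cdk2 and Mycn lost theirs without any 1 array (adjusted p = 0.0786 to 0.0916 and 0.0502 to 0.146), Ccnd3 without any 1 array except BMP2 replicate 1 (0.0779 to 0.152) and Cdk4 without any 1 array except TSA replicate 1 (0.0542 to 0.158). Proliferation genes such as Mki67 (-1.28, adjusted p = 0.257) and Ccna2 (-1.25, adjusted p = 0.266) had differences of this size that were not called in the main fit, which does not pair the arrays.

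In the Notch pathway, 3 of 19 measured members were higher and 3 were lower with TSA, 15.8% in each direction. These shares are near those of all genes (15.49% and 12.5%), so that nothing about the pathway is read from the counts. Dll1, a Notch ligand of newborn neurons and their precursors, had 958 and 619 in TSA cultures, against 215 and 242 in BMP2 cultures and 1069.6 and 1081 in controls, so that BMP2 was the group apart. Its log2 difference was 1.62 (adjusted p = 0.00848 in limma), and the call was lost without TSA replicate 1 or BMP2 replicate 1 (adjusted p = 0.0918 and 0.0601). Nrarp, a feedback target of Notch, differed by 0.84 (adjusted p = 0.033) with BMP2 again below the controls (-1.17, adjusted p = 0.0415). Numb, which antagonizes Notch, was at 588 and 517 with TSA, against 284 and 272 with BMP2 and 272 and 286 in controls (log2 difference 0.91, adjusted p = 0.00113), while a second probe set of the gene gave 0.07. Of the nuclear components, the coactivator Maml1 (-0.87) and the DNA-binding Rbpj (-0.42) were lower with TSA. Nrarp and Rbpj lost their calls without any 1 array (adjusted p = 0.0821 to 0.179 and 0.0547 to 0.192). The Hairy genes did not move as one, since Hey1 was much lower while Hes1 (0.65), Hes5 (0.04) and Hey2 (0.24) were not called.

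In the Wnt pathway, 3 of 27 measured members (11.1%) were higher and 5 (18.5%) were lower with TSA (median -0.05). Beside the 15.49% and 12.5% of all genes, nothing is read from these counts. Wif1, a secreted Wnt inhibitor, was nearly dark outside the BMP2 cultures, with 13.9 and 3.23 with TSA, against 509 and 301 with BMP2 and 5.37 and 2.77 in controls (log2 difference -3.40, standard error 0.26, adjusted p = 1.29e-06 in limma). The receptor genes split. Fzd1 gave 509 and 423 in TSA cultures, against 1113 and 915 in BMP2 cultures and 445 and 343 in controls (log2 difference -1.07, adjusted p = 0.000891), whereas Fzd9 gave 298 and 251 in TSA cultures, against 61.2 and 62.5 in BMP2 cultures and 133 and 167 in controls (log2 difference 1.70, adjusted p = 0.00796, or 0.0596 without TSA replicate 1). Tcf7l1, the mainly repressive TCF factor, was lower with TSA (-1.34, adjusted p = 0.00109). The ligand genes Wnt7a (-0.74) and Wnt5a (-0.84) were lower too, and Wnt5a lost its call without any 1 array (adjusted p = 0.0667 to 0.268) and Wnt7a without any 1 array except BMP2 replicate 1 (up to 0.305). Wnt5a had 132 and 144 with TSA, against 233 and 318 with BMP2 and 239 and 372 in controls, and 1 of its 3 probe sets was called. By quantitative RT-PCR the paper instead reports a rise of Wnt5a with TSA that depended on time and concentration. Sfrp1, a secreted Wnt binder, was higher (0.99, adjusted p = 0.0077, or 0.055 and 0.0588 without TSA replicate 2 or BMP2 replicate 1). Beta-catenin (Ctnnb1) and the target Axin2 were not called, at -0.05 and 0.17.

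**Figure D5:**
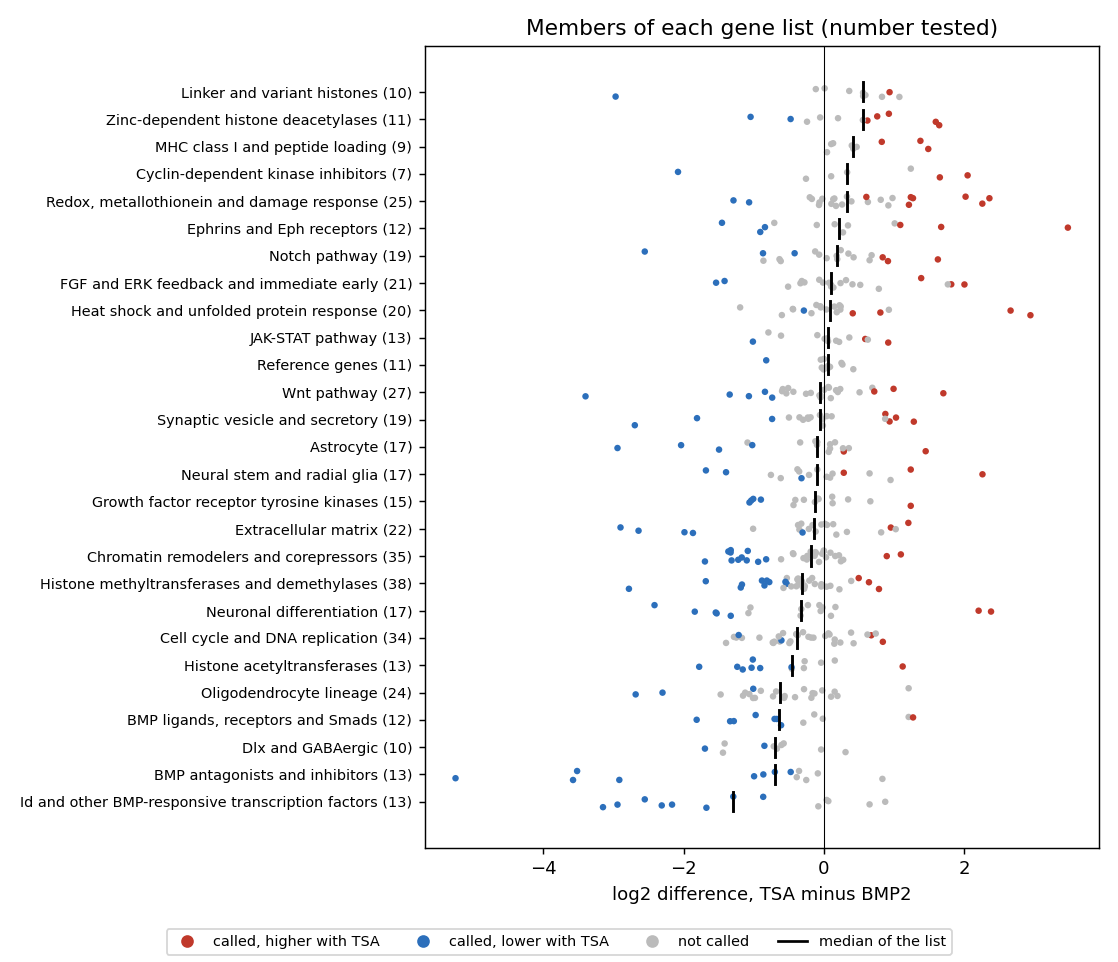
Each point is 1 measured gene of a list placed at its log2 difference, TSA minus BMP2 (horizontal axis), and black bars are list medians; the number of measured members stands in brackets, and lists with under 7 are left out. The medians of the BMP signaling lists (-0.70, -0.64 and -1.29) and of histone acetyltransferases (-0.46) lie to the left of 0, and that of histone deacetylases (0.56) lies to the right.

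Lineage genes differed in both directions. In the oligodendrocyte list, 3 of 24 measured genes were lower with TSA and 0 were higher (median -0.63). The share of lower genes is the 12.5% of all genes, and nothing is read from it. With the error from the 6 arrays of 6 h alone, 9 were lower and 2 higher. That fit called 4399 of all 19498 probe sets lower and 4904 higher. Nkx2-2, a transcription factor of the lineage, had 167 and 91.3 with TSA, against 1005 and 948 with BMP2 and 1658 and 1398 in controls (log2 difference -2.69, standard error 0.41, adjusted p = 0.000281 in limma). Omg, a myelin glycoprotein, differed by -2.30 (adjusted p = 0.000559). Pdgfra, the receptor of oligodendrocyte precursors, was at 832 and 515 in TSA cultures, against 1168 and 1563 in BMP2 cultures and 2627 and 2764 in controls, below the controls in both treatments (log2 difference -1.01, adjusted p = 0.00493, or 0.0982 and 0.0717 without TSA replicate 2 or BMP2 replicate 2). The lineage factors Olig1 (0.19) and Olig2 (0.10) were not called, and neither were Sox10 (-1.12, adjusted p = 0.128), Mbp (-0.18) or Cnp (-0.16). Cspg4 (-0.02 by its brightest probe set) has a further probe set at 1.78, so that its direction is uncertain.

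Of 17 astrocyte genes, 4 (23.5%) were lower and 2 (11.8%) were higher with TSA. S100b, a calcium-binding protein of astrocytes, gave 201 and 366 in TSA cultures, against 1183 and 1250.1 in BMP2 cultures and 1086 and 1166 in controls, and BMP2 and controls were alike (log2 difference -2.04, adjusted p = 0.00321 in limma). Aqp4, the water channel of astrocyte endfeet, differed by -1.02 (adjusted p = 0.00473, or 0.0536 without BMP2 replicate 2), and Id3, described above, is on this list as well. Hopx, a homeodomain protein of radial glia and astrocytes, was above the controls with BMP2 and gave 184 and 190.1 with TSA, against 640.0 and 535 with BMP2 and 146 and 148 in controls (log2 difference -1.50, adjusted p = 0.00286). Cd44, an adhesion receptor of astrocyte precursors, was higher with TSA at 586 and 627, against 189.8 and 214 with BMP2 and 266 and 226 in controls (log2 difference 1.45, adjusted p = 0.000342). The filament gene Vim was higher by only 0.28, a call lost without either TSA replicate or BMP2 replicate 1 (adjusted p = 0.101 to 0.35). Gfap differed by -1.09 but was not called (adjusted p = 0.565), with 188 and 552 with TSA, against 482 and 1100.3 with BMP2. It was higher on replicate 2 than on replicate 1 in each group, a gap that enters the error of the unpaired main fit. Between arrays of equal number it was lower with TSA both times.

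Of 17 neuronal genes, 5 (29.4%) were lower and 2 (11.8%) were higher with TSA. The lower ones included regulators of early neuronal differentiation. Vxn gave 339 and 171 with TSA, against 1537 and 1331 with BMP2 and 2056 and 1732 in controls (log2 difference -2.42, adjusted p = 0.00305 in limma, or 0.0516 without TSA replicate 2). Insm1, a zinc finger factor of newborn neurons, differed by -1.84 (adjusted p = 0.003, or 0.0548 without BMP2 replicate 1). Dcx, the microtubule protein doublecortin of migrating neurons, had 340.4 and 212 in TSA cultures, against 885 and 811 in BMP2 cultures and 1304 and 977 in controls (log2 difference -1.54, adjusted p = 0.00972, or 0.114 and 0.065 without TSA replicate 2 or BMP2 replicate 1). St18 and Elavl4, further genes of differentiating neurons, were the remaining 2 lower genes and likewise depended on single arrays (adjusted p up to 0.203 and 0.127). The 2 higher genes encode neurofilaments and lie close together on chromosome 14. Nefm gave 661 and 528 with TSA, against 106 and 71.6 with BMP2 and 181 and 128 in controls (log2 difference 2.38, standard error 0.35, adjusted p = 0.000213), and Nefl 256 and 159 with TSA, against 21.3 and 16.3 with BMP2 and 75.1 and 45.9 in controls (log2 difference 2.21, adjusted p = 0.000515). Tubb3 (-1.08, adjusted p = 0.16) and Map2 (-0.07) were not called. Among 10 measured Dlx and GABAergic genes 2 were lower with TSA and 0 higher. These were Dlx1 (-1.70, adjusted p = 0.0403), which lost its call without any 1 array (adjusted p = 0.0502 to 0.293), and Meis2 (-0.85, adjusted p = 0.000574), both striatal transcription factors.

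Of 19 synaptic and secretory genes, 4 (21.1%) were higher and 3 (15.8%) lower. Beside the 15.49% and 12.5% of all genes, these counts are not read as a result. Cadps, which primes dense-core vesicles, had 156 and 160.1 with TSA, against 1321 and 1092 with BMP2 and 432 and 399.9 in controls, and the controls lay between the treatments (log2 difference -2.70, standard error 0.27, adjusted p = 7.34e-06 in limma). Syp (0.94), Syn1 (0.88), Stx1a (1.03) and Chga (1.28), genes of synaptic or dense-core vesicles and their fusion, were higher with TSA. All 4 calls depended on single arrays. Syp and Syn1 lost theirs without TSA replicate 1 or BMP2 replicate 2 (adjusted p = 0.0525 and 0.0643 for Syp and 0.0792 and 0.0723 for Syn1), Stx1a without any 1 array except TSA replicate 2 (up to 0.129) and Chga without any 1 array (0.0522 to 0.216). Of 17 stem cell and radial glia genes 3 were higher and 3 lower (17.6% each), which is likewise near the shares of all genes. Nes, the intermediate filament nestin, gave 1208 and 979 in TSA cultures, against 236 and 171 in BMP2 cultures and 501 and 361 in controls (log2 difference 2.26, adjusted p = 0.00329), while a second probe set of the gene gave 0.04. Msi1, an RNA-binding protein of precursors, was at 531 and 512 with TSA, against 1693 and 1798 with BMP2 and 1467 and 1504 in controls (log2 difference -1.68, adjusted p = 0.00366). Pax6 differed by -1.40 (adjusted p = 0.000116) and Sox2 by only -0.32 (adjusted p = 0.00247, or 0.0503 without TSA replicate 2).

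The sums of marker signals were lower with TSA than with BMP2 for some of the cell types and overlapped for others. The 4 ganglionic eminence markers Dlx1, Dlx2, Gsx2 and Gad1 summed to 578 to 1230 on the TSA arrays, against 1841 to 3037 on the BMP2 arrays and 2568 to 3554 on the controls. The 4 astrocyte markers summed to 4129 to 4586 with TSA, against 6604 to 7783 with BMP2, and the 4 neuronal markers to 3418 to 4306 with TSA, against 4712 to 5474 with BMP2. The sums of the precursor markers overlapped, with 20482 to 21357 with TSA, against 20911 to 20978 with BMP2. Those of the oligodendrocyte lineage overlapped too, with 10927 to 12714 with TSA, against 12259 to 12913 with BMP2, both below the 17267 to 17467 of the controls. Single markers did not all follow their sum. Aldh1l1 among the astrocyte markers had 2036 and 1756 with TSA, against 1541 and 1406 with BMP2, and Nes among the precursor markers 1208 and 979 with TSA, against 236 and 171 with BMP2. Sox10 of the oligodendrocyte lineage had 1175 and 869 with TSA, against 2225 and 2253 with BMP2. Pdgfra was lower with TSA as well, whereas Olig1, the brightest of the 4, was higher and Olig2 overlapped. Map2, the brightest neuronal marker, had 3283 and 2794 with TSA, against 3285 and 3057.5 with BMP2. All 4 defining markers of each of these types reached a signal of 100, as did those of the oligodendrocyte lineage. Of other cells that a culture could hold, 0 of 4 microglial and 0 of 2 erythroid markers with a probe set reached 100, against 1 of 4 for endothelium and 2 of 3 for mural cells. In RNA of whole cultures, fewer cells of a type and less RNA per cell cannot be told apart, and the part of cell composition in the differences was not tested.

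Signaling genes outside the BMP pathway are given beside the 15.49% higher and 12.5% lower of all genes. Of 15 growth factor receptor kinases, 4 (26.7%) were lower and 1 (6.67%) was higher with TSA. The exception was Egfr, with 770.1 and 662 in TSA cultures, against 309 and 261 in BMP2 cultures and 1283 and 1169 in controls, so that both treatments were below the controls and BMP2 more so (log2 difference 1.24, adjusted p = 0.0144 in limma). Its probe sets disagreed, from -0.10 to 1.24, and the call was lost without any 1 array (adjusted p = 0.0503 to 0.0969). Fgfr3 (-1.06), Ddr1 (-1.04), Pdgfra and Kit (-0.90) were lower with TSA. The call of Kit was lost without any 1 array (adjusted p = 0.116 to 0.22), that of Ddr1 without TSA replicate 1 or BMP2 replicate 2 (0.0999 and 0.0976) and that of Fgfr3 without TSA replicate 2 (0.0821). In the FGF and immediate early list, 3 of 21 (14.3%) were higher and 2 (9.52%) lower, and nothing is read from these counts. Il17rd (Sef), an inhibitor of FGF signaling, had 395 and 394 with TSA, against 98.4 and 80.5 with BMP2 and 208 and 162 in controls (log2 difference 1.82, adjusted p = 0.00527), and the phosphatase gene Dusp1 ran the other way (-1.42, adjusted p = 0.00162). In the JAK-STAT list, 2 of 13 (15.4%) were higher and 1 (7.69%) lower, and these counts too are not read as a result. Jak2 had 535 and 472 in TSA cultures, against 1086 and 1007 in BMP2 cultures and 825 and 747 in controls (log2 difference -1.01, adjusted p = 0.000478), and Stat3, a mediator of gliogenic cytokines, 1181 and 1151 in TSA cultures, against 856 and 683 in BMP2 cultures and 711 and 653 in controls (log2 difference 0.59, adjusted p = 0.0245). Jak1 (0.92) and Stat3 lost their calls without certain single arrays (adjusted p = 0.0714 to 0.158 for Jak1 without any 1 of the 4 and 0.101 to 0.216 for Stat3 without either TSA replicate or BMP2 replicate 2).

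Single surface and matrix genes also differed. Of 9 measured genes of MHC class I and peptide loading, 3 (33.3%) were higher with TSA and 0 were lower (median 0.42), beside 15.49% and 12.5% of all genes. H2-D1 gave 813 and 945 with TSA, against 252 and 338 with BMP2 and 272 and 347 in controls (log2 difference 1.49, adjusted p = 0.000863 in limma), and H2-K1 676 and 804 with TSA, against 228 and 306 with BMP2 and 228 and 283 in controls (log2 difference 1.38, adjusted p = 0.0013). These genes belong to a family of similar sequences whose probe sets can bind several members. Tap1, a peptide transporter subunit, differed by 0.82 at signals of 70.6 at most, and its call was lost without any 1 array (adjusted p = 0.0847 to 0.24). Of 12 ephrins and Eph receptors, 3 were higher and 3 lower, with Epha3 (1.67) and Ephb3 (1.09) on the side of Efna3 and Epha5 (-1.45), Efna5 (-0.91) and Epha4 (-0.84) on the other. Epha3 lost its call without any 1 array (adjusted p = 0.0617 to 0.167), Epha4 without any 1 array except BMP2 replicate 2 (0.0504 to 0.0534), Efna5 without TSA replicate 2 or BMP2 replicate 1 (0.0777 and 0.0983) and Ephb3 without BMP2 replicate 1 (0.0738). Of 22 matrix genes, 2 (9.09%) were higher and 5 (22.7%) lower. Tnc, the matrix glycoprotein tenascin-C, had 445 and 201 in TSA cultures, against 2363 and 1781 in BMP2 cultures and 1726 and 784 in controls (log2 difference -2.64, adjusted p = 0.00234). The proteoglycan gene Vcan was at 154 and 97.8 with TSA, against 676 and 422 with BMP2 and 1063 and 786 in controls (log2 difference -1.87, adjusted p = 0.000676). Ccn2 (CTGF), a matricellular protein, gave 31.4 and 138 with TSA, against 590.2 and 933 with BMP2 and 11.9 and 33.7 in controls, with a wide spread (log2 difference -2.90, standard error 0.83, adjusted p = 0.0181) and a call lost without TSA replicate 1 or either BMP2 replicate (adjusted p = 0.0547 to 0.164). Of 11 reference genes 1 was called, the adaptor gene Ywhaz (-0.82), and their median was 0.06.

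In 20 genes the treatments were called in opposite directions against the controls, 4 higher with TSA and 16 lower. Both comparisons share the 2 control arrays. Papss2, which makes the sulfate donor PAPS, had 94.2 and 139 with TSA, against 1503 and 2587 with BMP2, and the controls lay between at 266 and 338 (log2 difference -3.77, standard error 0.41, adjusted p = 1.58e-05 in limma). Grin3a, an NMDA receptor subunit, gave 377 and 218 in TSA cultures, against 2531 and 2180.5 in BMP2 cultures, with controls of 804 and 490.1 (log2 difference -2.90, adjusted p = 5.22e-05). The long noncoding RNA Six3os1 gave 35.3 and 23.1 in TSA cultures, against 359 and 355 in BMP2 cultures, with controls of 154 and 130.2 (log2 difference -2.67, adjusted p = 1.62e-06). Nog, Cadps and Bmpr1a belong to the same 16 genes, as does Nfkbia, the inhibitor of NF-kappaB, with 948 and 981 with TSA, against 3241 and 3085 with BMP2 and 1554 and 1498 in controls. The other direction was rare. Pla2g4a, a cytosolic phospholipase, had 418 and 324 with TSA, against 60.9 and 61.9 with BMP2 and 172 and 170.2 in controls (log2 difference 2.10, adjusted p = 6.23e-05), and the deubiquitinase gene Usp20 1005 and 1046 with TSA, against 297 and 333 with BMP2 and 614 and 566 in controls (log2 difference 1.61, adjusted p = 7.34e-06). Grtp1 (1.70) and Ints4 (1.14) complete the 4.

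Further genes among the 15 largest differences belong to none of these lists. On the higher side, Tesc, the calcium-binding protein tescalcin, had 312 and 323 with TSA, against 23.8 and 21.7 with BMP2 and 21.3 and 25.5 in controls (log2 difference 2.67, standard error 0.26, adjusted p = 5.7e-06 in limma). Tcfl5 (2.54), Reep6 (2.54), Ifnz (2.51) and Rassf4 (2.50) were likewise low in BMP2 and control cultures. Pnma2 (2.64) had 568 and 565 with TSA, against 71.4 and 56.9 with BMP2 and 118 and 116 in controls. In Car8, Fam117a, Plekhf1 and Hlf the BMP2 cultures lay below the controls and the TSA cultures above them, but only 1 treatment of each was called against the controls. Not called were BMP2 for Car8, Fam117a and Hlf (adjusted p = 0.131, 0.102 and 0.677) and TSA for Plekhf1 (adjusted p = 0.157). Car8, a carbonic anhydrase-related protein, gave 741 and 716 with TSA, against 94.95 and 113 with BMP2 and 260.0 and 304 in controls (log2 difference 2.49, adjusted p = 0.000126). The differences were 2.45 for Fam117a, 2.52 for Plekhf1 and 2.41 for Hlf, a PAR bZIP transcription factor. On the lower side, Kif26b, an atypical kinesin, had 13.4 and 13.7 in TSA cultures, against 330.1 and 357 in BMP2 cultures and 36.1 and 27.9 in controls (log2 difference -3.04, adjusted p = 1.68e-06). Aatk, a kinase gene, gave 66.4 and 73.0 with TSA, against 578 and 1014 with BMP2 and 519.6 and 913 in controls, so that BMP2 and controls overlapped (log2 difference -2.97, adjusted p = 0.000428). Ampd3, an AMP deaminase (-2.83), showed this order too, and in Kctd4 (-2.96) the TSA arrays lay far below all others.

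Of 12 further genes that are named in the study, 9 were not called in the direct comparison. Gpr17, a receptor of premyelinating oligodendrocytes, had 799 and 448 with TSA, against 1287 and 1464 with BMP2, both below the 4258 and 4120.4 of the controls. The difference of -1.15 had a 95% interval of -2.65 to 0.34 (adjusted p = 0.267 in limma). Bmp4 was at 349.9 and 228 in TSA cultures, against 133 and 81.0 in BMP2 cultures and 1201 and 783 in controls, with a difference of 1.21 (interval 0.11 to 2.30, adjusted p = 0.104). These intervals are not adjusted for the number of tests. The arrays of the treatments did not overlap for either gene, and neither was called in the fit of 18 arrays. For Dll3 the difference was 0.19 (interval -0.83 to 1.21), for Gpd1 0.15 (-0.54 to 0.84), for Afap1l2 -0.41 (-0.92 to 0.10) and for Bambi -0.35 (-1.04 to 0.33). Bcas1 (-0.90, interval -2.15 to 0.35), Lims2 (-0.73, -1.57 to 0.12) and G0s2 (-0.60, -1.23 to 0.02) were not called either. Bcas1 has 3 probe sets, of which the brightest was not called and the other 2 were, all below 0 and down to -1.37. With the error from the 6 arrays of 6 h alone, 9303 of all 19498 probe sets were called. Of the 22 named genes without a call, 12 were called in that fit, Gpr17, Bmp4, Bcas1, Lims2 and G0s2 among them. Such intervals do not show that both agents act alike on the genes. Ptpre, a receptor-type phosphatase gene, did differ, with 289.5 and 334 with TSA, against 36.8 and 49.8 with BMP2 and 903 and 750.4 in controls (log2 difference 2.19, adjusted p = 0.000205). Tafa2 (-2.83) and Efhd1 (1.79) differed in opposite directions.

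The direct contrast was not the same after 24 h. The difference between TSA and BMP2 at 24 h minus that at 6 h was called for 1493 of 10589 genes (14.1%). This count fell to 538 when a term was added for the 4 arrays of 24 h that stand apart from the others, an alternative chosen after seeing the data. These are controls 5 and 6 and both BMP2 arrays, which correlated at 0.922 to 0.983 among themselves and at 0.84 to 0.942 with the other 24 h arrays, against 0.874 to 0.985 among those other arrays, across probe sets on the log2 scale. No TSA array is among the 4, so that without the term treatment and this separation cannot be told apart at 24 h.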

How the data were processed

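RNA of neurosphere cultures was hybridised to 18 Affymetrix mouse arrays with 45101 probe sets. The deposited values are linear intensity signals, 1 column per array. The submitters' notes give MAS5 for this step, whereas dChip and a quantile method stand in the paper, so which software made the values is not settled. Of the probe sets, 34958 have 1 gene in the platform annotation, 932 several and 9211 none, and symbols were updated through the gene ID to RefSeq on GRCm38.p6. Genes were named only from probe sets with 1 gene, by the brightest probe set over the 18 arrays.

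Signals were quantile normalized over 18 arrays and transformed to log2 after adding 32. All probe sets reaching a mean of 100 in 1 or more of 6 groups were fitted in limma 3.58.1 (R 4.3.3) with 1 mean per group and a mean-variance trend, and p-values were Benjamini-Hochberg adjusted over all 19498 probe sets, with 0.05 as threshold. The fit was tested on simulated data with known changes. Figures used Python 3.11.15 and matplotlib 3.10.9. Groups followed the labels. Deposited medians of the 18 arrays were 35.4 to 41.6, and there is no read depth on arrays.

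Genes were named by rule: the 15 largest differences in each direction with predicted genes passed over, up to 4 members of each list by p and members against its majority, the 5 largest opposite to each other against controls, and genes the study names. Other members were named after their values were seen. The members and lists were chosen with earlier results of these data known. Alternatives were other scalings, added constants, filters, error estimates, a replicate block, probe set rules and leaving out each of the 4 arrays. Germline, microglia and erythroid lists had 0 members past the filter, the endothelial list 1 and the mural list 3, with 0 called.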

Additional observations from a re-analysis of the deposited data

Results flagged for a closer look

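The difference between TSA and BMP2 was itself different at 24 h and at 6 h for 38 of 158 named genes, by the test of that difference in limma (adjusted p under 0.05), beside 14.1% of all genes tested. Many named genes were picked by their difference at 6 h, which the tested value subtracts. A smaller difference at 24 h can follow from that choice alone. Nothing is therefore read from the share of named genes or from how many moved in each direction. The values below are the log2 difference at 24 h minus that at 6 h, TSA minus BMP2 at each time. These values and the calls at 24 h come from the fit without a term for the 24 h arrays that stand apart. Both BMP2 arrays of 24 h are among those arrays and no TSA array is. In the values below, treatment and this separation of arrays therefore cannot be told apart. For 18 of the 38 genes the call held, and for 0 the sign changed, when a term was added for the 24 h arrays that stand apart, and for the other 20 the call was lost (adjusted p = 0.051 to 0.214 with the term). The 18 genes were Hopx, Nefm, Reep6, Hspa1b, Gadd45b, Hspa1a, Fam117a, Kdr, Kdm4b, Kmt5b, Macroh2a2, Sfrp1, Tle3, Egfr, Bmpr1b, Nog, Ampd3 and Pdgfra.

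Of the genes above BMP2 with TSA at 6 h, 14 had a lower difference at 24 h. The heat shock genes Hspa1b (-1.95) and Hspa1a (-1.75), Efna3 (-1.52), Fam117a (-1.35) and Ifnz (-1.55) were still above BMP2 at 24 h, Hspa1b by 0.99. Reep6 (-2.41), Rcor2 (-0.90) and the deacetylase genes Hdac1 (-0.60) and Hdac6 (-1.02) were close to BMP2 at 24 h, with differences of 0.13, 0.20, 0.02 and -0.09. Ier2 (-2.38), Kdm4b (-1.18) and Kdr (-1.22), which was not called at 6 h, were called below BMP2 at 24 h. Nefm (-3.16) and Fzd9 (-2.10) were not called at 24 h, with differences of -0.78 (adjusted p = 0.0543) and -0.39 (adjusted p = 0.411).

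Of the genes below BMP2 with TSA at 6 h, 17 had a smaller or opposite difference at 24 h. Nog (1.75) remained far lower, with -5.25 at 6 h and -3.50 at 24 h. The receptor Bmpr1a (0.60), the chromatin genes Kmt5b (0.99) and Macroh2a2 (1.41), the transcription factor Zeb2 (1.48), Kctd4 (1.61) and Six3os1 (1.22) were also still called lower at 24 h, by differences of -0.69 to -1.79. Kat6b (0.76) was at -0.40 at 24 h and was not called (adjusted p = 0.0511). Sox2 (0.29), Jak2 (0.92), the receptor Bmpr1b (1.72), Tle3 (1.43) and Tcf7l1 (1.06) were not called at 24 h either, with differences between -0.03 and -0.28. Pdgfra (2.94) passed to the other side, with -1.01 at 6 h and 1.94 at 24 h, and Fgfr3 (1.49) was at 0.42 at 24 h, which was not called (adjusted p = 0.139). Ampd3 (2.92) and Meis2 (0.86) were near 0 at 24 h.

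A further 7 genes had a larger difference at 24 h. Hopx (-3.26), Gadd45b (-1.79), Scg2 (-2.01) and Wif1 (-1.52) were farther below BMP2, Hopx by -4.75. Egfr (1.47), Sfrp1 (1.43) and the MHC class I light chain gene B2m (0.84) were farther above BMP2, Egfr by 2.71.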

How the results depend on the processing

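With all 18 arrays in the limma fit, 4716 probe sets were called, 2496 higher and 2220 lower with TSA. Leaving out 1 of the 4 arrays gave 2307 to 2725 calls, 1222 to 1380 higher and 1085 to 1345 lower, and in each case the calls shared with the full fit had the same direction. With the error from the 6 arrays of 6 h alone there were 9303 calls (4904 higher, 4399 lower), and from the 4 arrays alone 8862 (4696 and 4166). The cause was not tested. One probe set per gene gave 3179 calls, and the mean over the probe sets of a gene 3193, with 1412 lower calls in both, from fewer features tested. The other settings gave 4091 to 4870 calls.

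The replicate number as a block gave 4571 calls in the fit of 18 arrays (2404 higher, 2167 lower). It gave 12422 with the 6 arrays of 6 h alone (6406 and 6016) and 12584 with the 4 arrays alone (6469 and 6115). In this last fit 6 of 34 cell cycle genes were higher and 19 lower, and 2 of 24 oligodendrocyte genes were higher and 18 lower. These counts stand beside 6469 higher and 6115 lower of all 19498 probe sets in the same fit. Of the 22 named genes not called with all 18 arrays, 12 were called with the error from 6 arrays, 11 with that from 4 and 17 with the block added to either. Residuals of arrays of equal number correlated at 0.632 for TSA and BMP2, 0.564 for TSA and controls and 0.705 for BMP2 and controls. Only 2 numbers exist and the labels give no shared origin, so that the main fit did not pair the arrays by number. A gene not called in the main fit can therefore be called when the number is used.

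Of 136 named genes that were called, 0 reversed, 88 kept the call under every setting, 48 lost it without at least 1 array and 14 of these also under another setting (Bmp6, Dlx1, Dnaja1, Egfr, Epha4, Fosl2, Gstt3, H3f3b, Hspe1, Kmt5c, Nsd3, Tap1, Vim and Wnt5a). A sign changed only for genes that were not called. Cspg4 gave 0.002 from the deposited values and 0.88 as the mean of its probe sets, against -0.02. Leaving out 1 array gave -0.22 to 0.60 for Dll3 (below 0 without TSA replicate 1), -0.009 to 0.31 for Gpd1 (below 0 without BMP2 replicate 1) and -0.59 to 0.43 for Pdgfrb (above 0 without TSA replicate 1 or BMP2 replicate 2). In place of the 2071 probe sets past the criteria of fold and difference, an adjusted p alone gave 4716. The count of genes whose contrast differed between 24 h and 6 h, 1493, became 538 with the term for the arrays that stand apart. The number of arrays limits the precision, and for signals under 100 the added 32 shrinks a log2 difference.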

Other observations

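The arrays of equal number shared a pattern of their own in all 3 groups of 6 h. In 20 genes the 2 arrays of a group differed by more than 2-fold in the same direction in TSA, BMP2 and control cultures. The main fit does not pair the arrays, so that this gap enters the error of these genes. It called 0 of them between TSA and BMP2, which is therefore not read as a result. Higher on replicate 2 were 17 of them, among them the myelin genes Mobp (median log2 difference between the arrays 3.61), Mal and Mag, the glial genes Ptgds (2.76) and Gfap (1.41), and Cryab. Lower on replicate 2 were the proliferation genes Mki67 (-1.17) and Pbk (-1.14), and Wdfy1 (-2.06).

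Genes grouped by the start of their symbol also differed in their share of calls, beside 15.49% of all genes higher and 12.5% lower with TSA. Of 269 zinc finger genes named Zfp, 19 were higher and 54 (20.1%) lower, with a median of -0.14. Of 33 genes of the BTB zinc finger group Zbtb, 2 were higher and 9 (27.3%) lower, and of 30 genes of RNA-binding motif proteins (Rbm), 3 were higher and 8 (26.7%) lower. The opposite balance was seen in 30 genes of centrosomal proteins (Cep), with 10 (33.3%) higher and 2 lower, and in 177 genes of solute carriers (Slc), with 35 (19.8%) higher and 15 lower. These groupings were chosen after the data were seen and were not tested.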
